A study of Mus musculus with 10 samples.

Results

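Secretoglobins and other secreted defence proteins of the airway lining are described here in mouse lung: Scgb1a1, Scgb3a1, Scgb3a2, Bpifa1, Bpifb1, Lypd2 and Reg3g. These 7 genes were taken by name from the 53465 genes counted in each library, through the Ensembl identifier of each symbol. RNA was sequenced from 10 lung tissue samples of BALB/c mice, 5 of them untreated controls and 5 challenged with the alarmin cytokine IL-33. Challenged mice received 1 µg of IL-33 in 35 µL into the nose on each of 5 days, and lung tissue was taken 24 hours after the last dose. No source used here says whether the controls received a vehicle, or gives the age and sex of the animals. Instillation and IL-33 therefore cannot be told apart.

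Secretoglobins are small disulphide-linked dimeric proteins that club cells and other secretory cells release into the fluid over the airway surface, where they bind lipids and dampen inflammation. BPI fold proteins are relatives of bactericidal/permeability-increasing protein that bind lipid and bacterial products, and Reg3g is a secreted C-type lectin that kills Gram-positive bacteria and is known as a target of IL-22 and STAT3 in gut and airway epithelium. IL-33 acts through its receptor ST2 on innate lymphoid cells, mast cells and other cells, whose IL-13 drives airway secretory cells toward mucus production.

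Sequence before the start was matched for 4 of the 7 genes, Bpifa1, Bpifb1, Reg3g and Scgb3a1, and is given so that the motif matches can be read in place. Scgb1a1, Scgb3a2 and Lypd2 are not shown. The 5 windows are the 250 bases upstream of each start in RefSeq (GRCm38.p6), 5′ to 3′ on the strand of the gene, with capitals for matches to any of the motifs searched. The windows are Bpifa1 at chr2:154142630-154142879 (plus strand), the first start of Bpifb1 at chr2:154190568-154190817 (plus), its second start, inside the gene, at chr2:154200130-154200379 (plus), Reg3g at chr6:78468875-78469124 (minus) and Scgb3a1 at chr11:49663345-49663594 (plus).
Bpifa1: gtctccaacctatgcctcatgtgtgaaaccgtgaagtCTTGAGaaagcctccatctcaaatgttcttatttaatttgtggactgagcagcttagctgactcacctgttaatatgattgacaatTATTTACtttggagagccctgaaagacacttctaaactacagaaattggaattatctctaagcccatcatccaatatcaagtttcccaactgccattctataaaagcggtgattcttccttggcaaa
Bpifb1, first start: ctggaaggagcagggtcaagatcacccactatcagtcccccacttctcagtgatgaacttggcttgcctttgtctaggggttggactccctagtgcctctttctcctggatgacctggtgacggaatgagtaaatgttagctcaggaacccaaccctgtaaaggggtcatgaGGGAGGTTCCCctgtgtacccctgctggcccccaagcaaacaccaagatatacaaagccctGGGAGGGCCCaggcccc
Bpifb1, second start: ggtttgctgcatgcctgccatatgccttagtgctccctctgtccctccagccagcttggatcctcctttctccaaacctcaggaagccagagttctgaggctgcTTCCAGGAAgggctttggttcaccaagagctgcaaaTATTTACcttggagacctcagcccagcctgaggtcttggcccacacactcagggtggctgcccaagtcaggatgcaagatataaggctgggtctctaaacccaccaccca
Reg3g: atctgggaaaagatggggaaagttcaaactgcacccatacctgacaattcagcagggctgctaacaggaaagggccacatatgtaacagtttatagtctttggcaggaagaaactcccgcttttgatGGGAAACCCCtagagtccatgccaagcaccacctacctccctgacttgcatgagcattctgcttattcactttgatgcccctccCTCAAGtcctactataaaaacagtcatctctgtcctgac
Scgb3a1: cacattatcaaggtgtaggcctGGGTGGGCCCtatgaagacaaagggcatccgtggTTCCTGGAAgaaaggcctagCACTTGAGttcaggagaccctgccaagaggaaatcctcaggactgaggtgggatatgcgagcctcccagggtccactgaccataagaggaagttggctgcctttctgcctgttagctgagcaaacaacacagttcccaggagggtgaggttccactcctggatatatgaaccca

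The motifs were searched on both strands. The STAT spacing TTCNNNGAA, present in 7.02% of the 32851 windows of this length in the table, was found in Scgb3a1 (194 to 186 bases before the start) and in the second window of Bpifb1 (146 to 138). TATTTAC, a forkhead (FOXA) form present in 2.73% of windows, was found in Bpifa1 (127 to 121) and in the second window of Bpifb1 (110 to 104). CTTGAG, an NKX2-1 form present in 13.3%, was found in Bpifa1 (213 to 208), in Reg3g on the opposite strand (39 to 34) and in Scgb3a1 (172 to 167), where it overlaps a CAAGTG match on the opposite strand (174 to 169, a form in 11.6% of windows). A loose NF-kB form (3 G, any 5 bases, 2 C), in 45.8% of windows, was found in Reg3g (123 to 114), in Scgb3a1 (228 to 219) and 3 times in the first window of Bpifb1 (78 to 69, overlapping 77 to 68 on the opposite strand, and 17 to 8). No letters matched the STAT6 spacing (TTC and GAA with 4 bases between, 5.85% of windows), TGTTTAC (FOXA, 3.17%), TTGCNNAA or TTNNGNAAT (both C/EBP, 9.56% and 10.2%). These are matches of letters in a short window and describe the sequence only.

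Levels are given as CPM, the reads of a gene scaled to the reads counted in genes in its library and then between libraries. Changes are log2 fold changes of IL-33 over control from edgeR's quasi-likelihood test, ± SE, with p-values adjusted by the Benjamini-Hochberg method over 15695 genes, and 0.05 as the threshold. Control libraries held 8935159 to 13767118 counted reads and IL-33 libraries 7805175 to 13178798, so 3 reads stood for 0.218 to 0.384 CPM. The labels number the samples but do not tie them to single animals, so p-values measure the spread between these samples, which may be technical in part. Sftpc, the surfactant protein that marks alveolar type 2 cells, stood at 10586 ± 905 CPM (SD, n = 5) in controls and 10199 ± 785 CPM after IL-33, so lung tissue is present in both groups. All 7 genes were counted well enough to be tested. Of them 4 rose, 2 fell and Bpifa1 did not pass, against a background in which 69.9% of all tested genes passed (35.1% higher, 34.8% lower), so the share of genes that passed is not a feature of these 7. Only Scgb1a1 and Scgb3a2 had control and IL-33 values that did not overlap, 2 of 7, where 56.5% of all tested genes had none overlapping. The median change was 0.92 for the 7 genes and -0.0068 for all genes tested. The first is the value of Lypd2, a short gene, and short genes tended to rise, as described below.

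**Figure D1:**
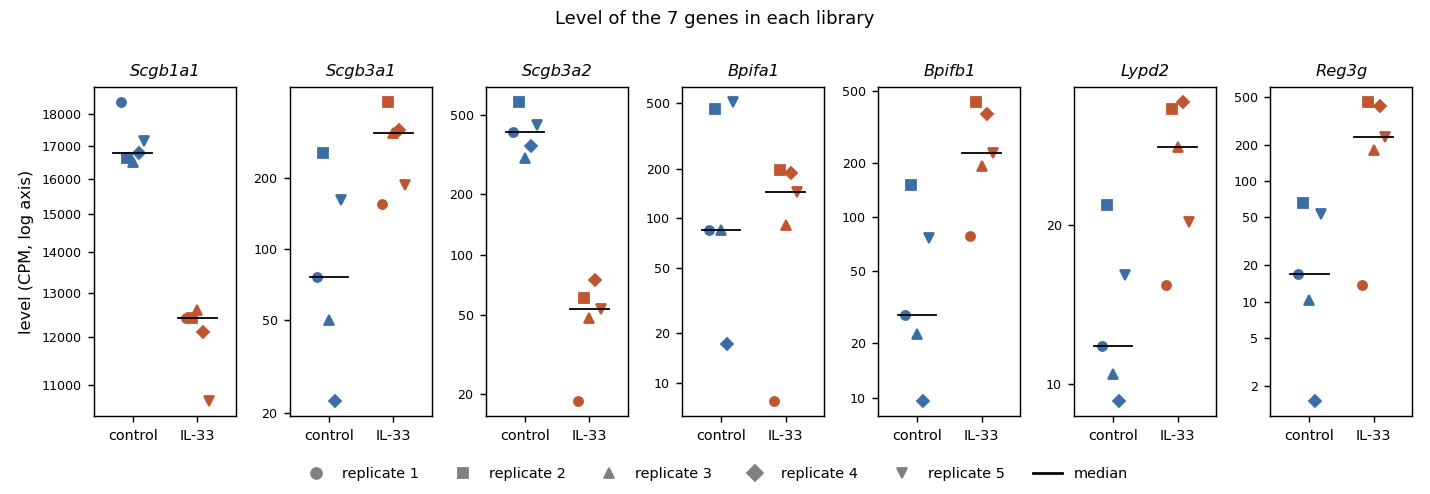
Level of each of the 7 genes in each library (CPM, log axis with its own range for each gene), controls in blue and IL-33 in orange, with a symbol for each replicate number and a bar at the group median. Scgb1a1 and Scgb3a2 separate without overlap, downward, while Bpifa1, Bpifb1 and Reg3g spread over more than 5-fold within each group.

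Scgb1a1 is the main secretoglobin of club cells, long used as their marker. In the 5 controls it stood at 18411, 16614, 16511, 16775 and 17137 CPM, the highest mean of any gene counted, and after IL-33 at 12410, 12416, 12607, 12099 and 10673 CPM, second among all genes. Every IL-33 library lay below every control, and control values differed by no more than 1.12-fold. The gene (ENSMUSG00000024653, chromosome 19, 9083636 to 9087958, minus strand, GRCm38, 3 exons) fell by 0.51 ± 0.05 on the log2 scale, a 1.42-fold fall (edgeR adjusted p = 0.000505). In RNA from bulk tissue, fewer cells of a type and less RNA per cell cannot be told apart.

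Scgb3a2, a second club cell secretoglobin that signals through the scavenger receptor Marco, fell much more. Its 5 control values were 411, 579, 304, 347 and 446 CPM, and its IL-33 values 18.5, 60.4, 48.1, 74.6 and 53.4 CPM. By ratio, the lowest control stood about as far above the highest IL-33 library as the highest IL-33 library stood above the lowest, and the groups did not overlap. The change of Scgb3a2 (ENSMUSG00000038791, chromosome 18, 43764289 to 43767399, plus strand, 2 exons) was -3.03 ± 0.38, an 8.17-fold fall (edgeR adjusted p = 1.25e-06). Only 10 of all genes that fell had a more negative fitted change.

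Scgb3a1, the secretoglobin of larger airways and of mucous cells, went the other way. Controls held 76.1, 254, 49.9, 22.5 and 161 CPM and IL-33 libraries 155, 420, 311, 320 and 187 CPM. Controls 2 and 5 reached into the IL-33 range, so the groups overlapped. The change of Scgb3a1 (ENSMUSG00000064057, chromosome 11, 49663610 to 49665118, plus strand, 4 exons) was 1.31 ± 0.67 (edgeR adjusted p = 0.0348). This call is fragile: DESeq2 gave 1.30 with an adjusted p of 0.0558, and the edgeR call was lost in 5 of the 10 fits that left out 1 library (without control 1 or 3, or without IL-33 library 2, 3 or 4; adjusted p = 0.0605 to 0.0801).

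The pair of BPI fold genes lie 41599 bases apart on chromosome 2 and did not move alike. Bpifa1, also called SPLUNC1, is a secreted protein that lowers surface tension and holds back the epithelial sodium channel. It stood at 84.4, 459, 84.6, 17.2 and 508.5 CPM in controls and at 7.70, 197, 90.8, 187 and 144 CPM after IL-33. The groups overlapped widely, and control values differed by 29.5-fold. The change of Bpifa1 (ENSMUSG00000027483, 154142880 to 154149219, plus strand, 10 exons) was -0.88 ± 1.26 (edgeR adjusted p = 0.348), so with this spread neither a fall nor a rise could be told.

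Bpifb1, the longer BPI fold protein of goblet and gland cells, stood at 28.6, 150, 22.4, 9.54 and 77.0 CPM in controls and at 78.7, 434, 191, 373 and 226 CPM after IL-33. Control 2 lay above IL-33 library 1, and all other IL-33 values lay above all control values. The change of Bpifb1 (ENSMUSG00000027485, 154190818 to 154220369, plus strand, 15 exons) was 2.19 ± 0.82, a 4.56-fold rise (edgeR adjusted p = 0.00717). Between these genes lies Bpifa5, with 2 reads in all controls together and 0 after IL-33. Bpifb5, 3373 bases beyond Bpifb1, rose, with no overlap, from 3.85 ± 0.418 to 7.46 ± 0.852 CPM (0.95 ± 0.10, edgeR adjusted p = 3.55e-05).

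Reg3g, the antibacterial lectin, had the largest fitted rise of the 7. Its control values were 17.0, 66.1, 10.4, 1.49 and 53.0 CPM and its IL-33 values 13.6, 454, 183, 418 and 231 CPM. IL-33 library 1 lay within the control range, and the other 4 IL-33 libraries all lay above the highest control. The change of Reg3g (ENSMUSG00000030017, chromosome 6, 78466269 to 78468872, minus strand, 3 exons) was 3.15 ± 1.34, an 8.87-fold rise (edgeR adjusted p = 0.00468). The lowest control value rests on 17 reads. The other Reg lectins were scarcely counted: of 6, none was tested and 4 had no read in any library, Reg3b among them.

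Lypd2, a small protein of the Ly6/uPAR fold found in airway secretory cells, had the fewest reads of the 7 in both groups. It stood at 11.8, 21.9, 10.5, 9.28 and 16.1 CPM in controls and at 15.4, 33.3, 28.1, 34.3 and 20.3 CPM after IL-33. The highest control, number 2, lay above IL-33 libraries 1 and 5. The change of Lypd2 (ENSMUSG00000022595, chromosome 15, 74732247 to 74734329, minus strand, 3 exons) was 0.92 ± 0.31, a 1.90-fold rise (edgeR adjusted p = 0.00574). Its neighbour Slurp1, a secreted Ly6 protein 4213 bases away, fell from 2.03 ± 0.612 to 0.470 ± 0.161 CPM (-2.05 ± 0.31, edgeR adjusted p = 9.46e-05).

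Short transcripts tended to be higher after IL-33 across all genes of these libraries, which bears on the shorter of the 7 genes. Genes within 1.19-fold of the 679 exonic bases of Lypd2 (212 genes) had a median change of 1.02, slightly above that of Lypd2 itself. For the 476 bases of Scgb1a1 (131 genes) the median was 0.96, for the 598 bases of Scgb3a1 (161 genes) 0.96 and for the 880 bases of Scgb3a2 (366 genes) 0.84. The longer genes met a flatter background, with a median of 0.45 for the 1545 bases of Bpifa1 (1122 genes), 0.27 for the 2114 bases of Reg3g (1728 genes) and 0.013 for the 3617 bases of Bpifb1 (2932 genes). With each library's trend on length and GC content removed, Lypd2 went to -0.052 (edgeR adjusted p = 0.860) and Scgb3a1 to 0.22 (edgeR adjusted p = 0.696), so both calls ended. The falls became larger, to -1.67 for Scgb1a1 (edgeR adjusted p = 2.75e-08) and -4.01 for Scgb3a2 (edgeR adjusted p = 2.10e-07). The rises of Bpifb1 (2.08) and Reg3g (2.62) kept their calls (edgeR adjusted p = 0.00858 and 0.0123). Whether the length trend comes from the RNA of the tissue or from the libraries was not tested.

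**Figure D2:**
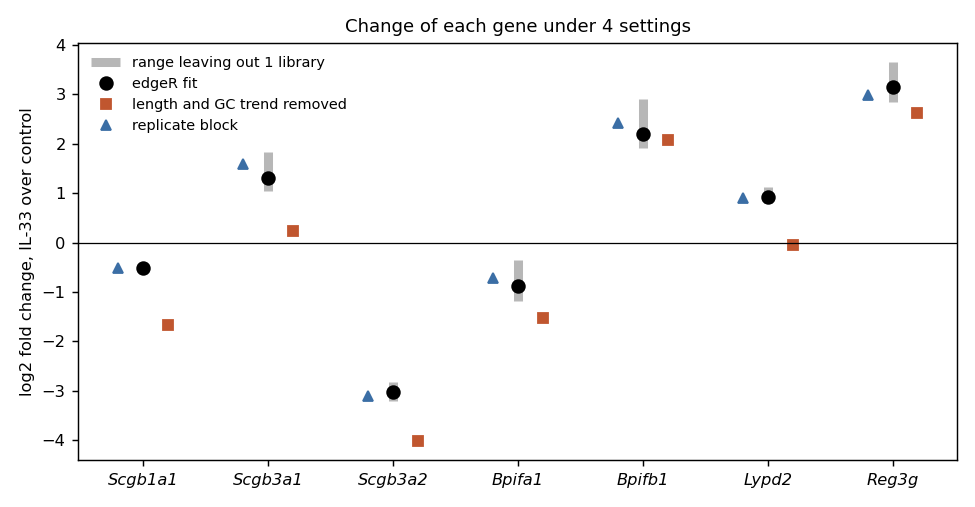
Log2 fold change of IL-33 over control for each of the 7 genes: the edgeR fit (black), the range over fits that left out 1 library (grey), the fit with the replicate number as a block (blue) and the fit with the length and GC trend removed (orange). The orange points lie below the black ones for all 7 genes, at -1.67 against -0.51 for Scgb1a1, and cross 0 for Lypd2.

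Levels can be compared between genes only per length. On that scale (CPM per kilobase of exon) Scgb1a1 stood far above the rest in both groups, at 35902 ± 1630 in controls and 25297 ± 1651 after IL-33. In controls Scgb3a2 came next at 474.5 ± 120, then Scgb3a1 at 189 ± 158 and Bpifa1 at 149 ± 151, then Lypd2 at 20.5 ± 7.59, Bpifb1 at 15.9 ± 16.0 and Reg3g at 14.0 ± 13.4. Neighbours in that order below Scgb1a1 overlapped in range. After IL-33 the order below Scgb1a1 was Scgb3a1 at 466 ± 180, Reg3g at 123 ± 85.3, Bpifa1 at 81.1 ± 50.5, Bpifb1 at 72.1 ± 39.6, Scgb3a2 at 58.0 ± 23.6 and Lypd2 at 38.7 ± 12.1. Here Scgb3a1 lay above every Reg3g value, and the other neighbours overlapped. Scgb3a2 thus moved from rank 2 of the 7 to rank 6, and Scgb3a1 from rank 3 to rank 2. The 7 genes together took 1.81% ± 0.109 of counted reads in controls (1.69% to 1.96%) and 1.29% ± 0.0826 after IL-33 (1.18% to 1.37%), a difference of -0.515 percentage points with no overlap (two-sided exact permutation test, p = 0.00794, the smallest that 5 against 5 can give). Nearly all of this is Scgb1a1: without it the share was 0.0884% ± 0.0516 and 0.101% ± 0.0516 (exact permutation p = 0.683).

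Set against Scgb1a1 within each library, a ratio that does not depend on scaling between libraries, the other 6 genes were compared in 6 tests. Per 100 reads of Scgb1a1, Scgb3a2 gave 1.84 to 3.49 reads in controls and 0.149 to 0.617 after IL-33, with no overlap (log2 difference -2.63 ± 0.39, two-sided exact permutation p = 0.00794, adjusted 0.0238). Reg3g gave a median of 0.0923 reads (0.00913 to 0.398) in controls and 2.16 (0.11 to 3.66) after IL-33 (log2 difference 3.87 ± 1.35, exact permutation p = 0.0238, adjusted 0.0286). Only IL-33 library 1 fell within the control range. Bpifb1 went from a median of 0.156 to 2.12 (3.09 ± 0.83), Scgb3a1 from 0.414 to 2.47 (2.19 ± 0.67) and Lypd2 from 0.0643 to 0.224 (1.43 ± 0.31), each with an exact permutation p of 0.0159 and an adjusted 0.0238. In these 3 genes only IL-33 library 1 lay within the control range. Bpifa1 differed by -0.082 ± 1.27 (exact permutation p = 0.929). These calls rest on few libraries: without IL-33 library 2, 3 or 4 the differences of Bpifb1 (2.86 to 3.16), Scgb3a1 (2.03 to 2.15) and Lypd2 (1.32 to 1.41) had an exact permutation adjusted p of 0.0595. That of Reg3g (3.04 to 3.84) had 0.0571 without control 4 and 0.0667 without IL-33 library 2, 3, 4 or 5. Scgb1a1 is the shortest of the 7, so the length trend described above enters these ratios.

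The 6 genes other than Scgb1a1 varied together from library to library. Controls 2 and 5 were high and control 4 and IL-33 library 1 low for Bpifa1, Bpifb1, Scgb3a1 and Reg3g. After each group's mean was subtracted, all 15 pairs of these 6 genes had a Pearson r of 0.60 to 0.99 and a Spearman rho of 0.78 to 0.99 over the 10 libraries. Bpifa1 and Reg3g reached 0.99, although Bpifa1 did not pass between groups and Reg3g rose. Without the 2 farthest libraries the r values ran from 0.66 to 0.95. Scgb1a1 took no part, with an r of -0.18 to 0.16 in its 6 pairs. These are descriptions over the same 10 libraries, with no test.

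**Figure D3:**
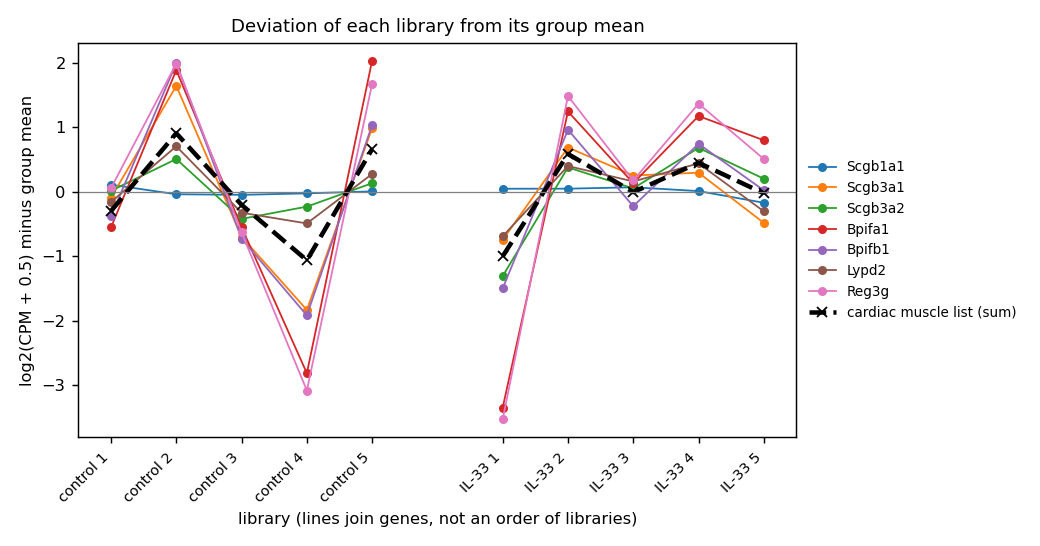
Deviation of each library from the mean of its group, in log2(CPM + 0.5), for the 7 genes (coloured) and for the summed level of 16 cardiac muscle genes (black, dashed). Bpifa1, Bpifb1, Reg3g and Scgb3a1 are high in controls 2 and 5 and drop in control 4 and IL-33 library 1 together with the muscle genes, and Scgb1a1 stays near 0.

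The genes most like each of the 7 in this library-to-library variation were named out of 13815 genes by Pearson r over the 10 libraries. For Bpifa1 they were Myom2, a protein of the sarcomere M-band (0.99), Reg3g (0.99) and Myoz2, a Z-disc protein (0.99). For Reg3g they were Myom2 (0.99), the muscle LIM protein Csrp3 (0.99) and Bpifa1 (0.99), and for Bpifb1 the muscle genes Mybphl (0.99), Ldb3 (0.98) and Hrc (0.98). Scgb3a1 was most like the myosin light chain Myl1 (0.98), Agr2, a disulphide isomerase of mucous cells (0.97), and Oit1 (0.96). Lypd2 was most like the glutathione transferase Gsto1 (0.99), Lrrc51 (0.98) and Foxj1, the transcription factor of motile cilia (0.97). Scgb3a2 was most like Ppp1r36 (0.98), the matrix proteoglycan Lum (0.97) and the Wnt antagonist Sfrp4 (0.97). Scgb1a1 was most like the ribosomal protein genes Rpl9 and Rps10 and the phosphatase Impa2 (all 0.93). Scgb1a1 varied by only 1.12-fold in controls and 1.18-fold after IL-33, so its likeness rests on small differences. These are the highest of 13815 values each, and no test was made.

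Striated muscle genes are thus among those most like Bpifa1, Bpifb1, Reg3g and Scgb3a1, and heart-type muscle sheathes the pulmonary veins of mice. A list of 16 cardiac muscle genes, chosen after these values were seen and without the genes named above, had a summed level of 1117, 2576, 1194, 658 and 2172 CPM in the 5 controls and 244, 735, 487, 668 and 481 CPM after IL-33. Controls 2 and 5 were again the highest and IL-33 library 1 the lowest. None of the 16 was at 0, and 11 were lower and 0 higher after IL-33, with a median change of -1.36. With group means subtracted, the summed level had an r of 0.98 with Bpifb1, 0.97 with Bpifa1 and Reg3g, 0.93 with Lypd2, 0.92 with Scgb3a1, 0.79 with Scgb3a2 and -0.081 with Scgb1a1. Tracheal cartilage genes summed to 56.7 to 85.5 CPM in controls and 47.6 to 75.5 CPM after IL-33. Most of this was Cytl1 (mean 52.1 and 41.5 CPM), while the cartilage collagen Col2a1 stood at 2.07 and 1.64 CPM. The r of this sum was highest with Bpifa1 (0.84), and it was 0.65 with Scgb3a1 and -0.58 with Scgb1a1. The part that the piece of lung taken plays in these levels was not tested. With the muscle level, centred within each group, as a covariate, Reg3g changed by 3.35, Bpifb1 by 2.55, Scgb3a1 by 1.67, Lypd2 by 0.93 and Scgb3a2 by -3.10 (edgeR adjusted p from 1.61e-08 for Bpifb1 to 2.31e-05 for Scgb3a1), and Bpifa1 by -0.47 (edgeR adjusted p = 0.0964). The muscle list was chosen after muscle genes were seen to vary with these genes, so smaller p-values follow from that choice. They do not strengthen any call. Uncentred, the covariate also takes up the lower muscle level of the IL-33 group, and every change but that of Scgb1a1 then moved. Bpifa1 changed by 3.43 (edgeR adjusted p = 2.99e-05), Reg3g by 7.37, Bpifb1 by 5.20, Scgb3a1 by 3.64, Lypd2 by 1.92, Scgb3a2 by -2.22 and Scgb1a1 by -0.52.

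Because Bpifa1 shared this variation and did not pass between groups, ratios to it were formed after its values were seen, and they narrow the spread of some genes. There were 0.201, 0.144, 0.123, 0.0886 and 0.104 reads of Reg3g per read of Bpifa1 in the controls and 1.76, 2.31, 2.02, 2.23 and 1.598 after IL-33. All IL-33 values lay above all controls, and within each group the ratio varied far less than either gene alone. The log2 difference was 3.95 ± 0.23, or 15.5-fold (two-sided exact permutation p = 0.00794, adjusted over 5 ratios 0.0198). Bpifb1 gave 0.152 to 0.554 reads per read of Bpifa1 in controls and 1.57 to 10.2 after IL-33, also without overlap (3.17 ± 0.57, exact permutation p = 0.00794, adjusted 0.0198). Scgb3a1 gave 0.317 to 1.30 and 1.29 to 20.1 (2.28 ± 0.78, exact permutation p = 0.0159, adjusted 0.0265), with control 4 just above IL-33 library 5. Scgb3a2 differed by -2.55 ± 0.96 (exact permutation p = 0.0317, adjusted 0.0397) and Lypd2 by 1.51 ± 1.00, which did not pass (exact permutation p = 0.167). Since Bpifa1 was chosen as the denominator for its behaviour in these libraries, these ratios are a description of it as much as of the other genes. The unsettled change of Bpifa1 itself (-0.88 ± 1.26) enters each ratio, and Reg3g alone rose by 8.87-fold. The narrower spread and the p-values of these ratios follow in part from the choice of Bpifa1. They do not strengthen any call.

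**Figure D4:**
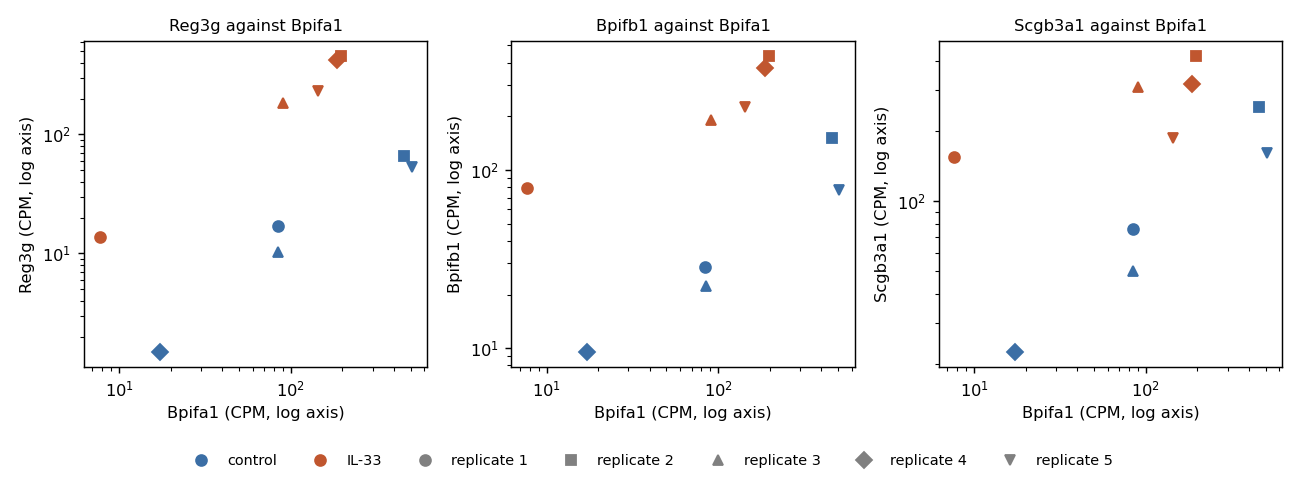
Level of Reg3g, Bpifb1 and Scgb3a1 against that of Bpifa1 in each library (CPM, both axes log), controls in blue and IL-33 in orange, with a symbol for each replicate number. For Reg3g the controls and the IL-33 libraries form separate bands, 15.5-fold apart, each climbing with Bpifa1.

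Relatives of the 7 genes mostly had few reads or none. Of 27 other secretoglobins 26 had no read in any library. Several of them are near-identical copies, and reads that align to more than 1 place are not in the gene counts. The exception, Scgb1c1, fell from 5.56 ± 0.965 to 2.72 ± 0.462 CPM (-1.02 ± 0.15, edgeR adjusted p = 0.000162). None of the 7 genes themselves shared a 75-base stretch with another gene or overlapped one. Of 15 other BPI fold proteins 3 were tested: Bpifb5 rose, Pltp, the phospholipid transfer protein, fell by 0.36 ± 0.04 (edgeR adjusted p = 0.000231; part of its transcript overlaps Ctsa), and Lbp did not pass (-0.025). Of 18 tested Ly6/uPAR relatives 9 rose and 4 fell, with a median of 0.40. Ly6k rose from 0.292 ± 0.159 to 1.86 ± 1.12 CPM, and the most abundant, Ly6e, stood at 459.75 ± 62.6 and 511.9 ± 78.3 CPM (edgeR adjusted p = 0.254). With the length and GC trend removed, 3 of the 18 rose and 7 fell.

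Other secreted defence proteins of the airway mostly rose. Of 38 tested, 28 rose and 6 fell, with a median of 2.03. The resistin-like protein Retnla was the most abundant (75.9 ± 47.0 to 16062 ± 2100 CPM), the trefoil peptide Tff1 went from 1 read in all controls together to 16.0 ± 5.55 CPM, and the iron-binding protein Ltf from 80.4 ± 78.6 to 318 ± 62.0 CPM. The lysozyme Lyz1 fell from 481 ± 27.1 to 79.4 ± 20.03 CPM. Lyz1, Retnla and Ltf are also made by macrophages, alveolar cells or neutrophils, so the list is not one of airway epithelium alone.

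Most genes for proteins that the 7 are known to bind or act through were lower. Of 12 listed, 10 were tested, 0 rose and 8 fell, with a median of -1.19. The 3 subunits of the epithelial sodium channel, which Bpifa1 binds, all fell: Scnn1a from 498 ± 70.8 to 212 ± 24.1 CPM (-1.23 ± 0.12), while Scnn1b changed by -1.40 and Scnn1g by -1.65 (edgeR adjusted p = 5.44e-07, 1.34e-08 and 1.82e-07). Extl3, reported as a receptor of Reg3 proteins, fell by 0.68 (edgeR adjusted p = 1.13e-05), and Marco, a scavenger receptor that Scgb3a2 binds, fell from 3.51 to 1.58 CPM (edgeR adjusted p = 0.00537).

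Signals upstream of these genes, together with genes that such signals act on, were looked at through 2 lists. In the IL-17, IL-22 and STAT3 list, 18 genes were tested, 7 rose and 7 fell, with a median of 0.10. Il22 had 1 read in each group, Il17a 0 in controls and 71 after IL-33 (not tested), and Stat3 stood at 231 and 234 CPM (edgeR adjusted p = 0.828). Il6 rose from 0.510 ± 0.414 to 5.43 ± 1.47 CPM (3.41 ± 0.66, edgeR adjusted p = 1.28e-05), while Il22ra2, the secreted trap for IL-22, fell from 1.77 ± 0.325 to 0.278 ± 0.150 CPM (-2.54 ± 0.27, edgeR adjusted p = 9.05e-06). The most abundant gene, Il6st, the shared receptor chain of the IL-6 family, fell by 0.31 (edgeR adjusted p = 0.00359). In the IL-13 and STAT6 list all 15 genes were tested, 9 rose and 4 fell, with a median of 2.52. Il13 itself went from 3 reads in all controls to 33.9 ± 22.0 CPM, and the goblet cell protein Clca1 from 20.5 ± 35.2 to 1768 ± 822 CPM. Among the 9 that rose were the cytokines Il13 and Il4 and the receptor chain Il2rg, but also goblet cell genes such as Clca1 and Spdef. The median is the value of Spdef. The receptor chain Il4ra fell by 0.47 (edgeR adjusted p = 0.000475). Also lower were the receptor chain Il13ra1 (-0.37), Stat6 (-0.33) and the kinase Jak1 (-0.27). Receptor and signalling genes of this list did not all fall. Il13ra2 went from 2 reads in all controls to 6.74 ± 2.22 CPM (7.10 ± 0.32, edgeR adjusted p = 7.53e-08). Socs1 rose by 2.72 ± 0.22 (edgeR adjusted p = 1.04e-07).

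Of 27 airway epithelial transcription factors 8 rose and 10 fell, with a median of -0.16. Among those whose motif forms were searched above, Nkx2-1 fell by 0.31 (edgeR adjusted p = 0.00114) and Foxa1 by 0.95 (edgeR adjusted p = 0.000233), Foxa2 did not pass (-0.26, edgeR adjusted p = 0.172) and Foxa3 rose from 0.279 to 2.90 CPM (edgeR adjusted p = 4.03e-06). Of the C/EBP factors Cebpa fell by 0.40 (edgeR adjusted p = 0.000381), while Cebpb (0.34, edgeR adjusted p = 0.120) and Cebpd (-0.43, edgeR adjusted p = 0.246) did not pass. The factors Stat3 and Stat6 are in the signal lists, where Stat6 fell by 0.33 (edgeR adjusted p = 0.000646). These were chosen after their values were seen. The largest rise was that of Cebpe (0.0755 to 5.74 CPM), a factor of granulocytes as well, and the largest fall that of Etv5 (155 to 69.0 CPM, -1.17 ± 0.18). Hopx was the most abundant and fell by 0.77.

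Marker lists give the cells that could carry the 7 genes. Of 28 tested club cell genes other than the 7, 20 fell and 5 rose, with a median of -1.05, and their summed level was 11042 to 14391 CPM in controls and 4480 to 6166 CPM after IL-33. The carbonyl reductase Cbr2, the most abundant, fell by 1.32 ± 0.12 (edgeR adjusted p = 5.59e-07) and the paraoxonase Pon1 from 37.4 ± 6.75 to 1.81 ± 0.834 CPM, while Gsto1 rose by 1.72 ± 0.21 (edgeR adjusted p = 1.88e-06). Of 15 goblet cell genes 14 rose and 0 fell, with a median of 3.33, and their sum went from 89.4 to 338 CPM in controls to 1385 to 3973 CPM after IL-33. With group means subtracted, the goblet sum had an r of 0.82 to 0.92 with the 6 genes other than Scgb1a1, among them Bpifb1 (0.92), which rose, and Scgb3a2 (0.87), which fell. Most of the goblet sum after IL-33 was Clca1 (1768 ± 822 CPM). The ciliated cell sum had an r of 0.69 (Scgb3a1) to 0.90 (Lypd2) with the same 6 genes, so this likeness is not particular to goblet cells. With Scgb1a1 the goblet sum had an r of -0.074 and the club sum -0.52. Of 4 tested serous and gland cell genes 2 rose and 1 fell, with 7 of the 16 listed at 0 in all libraries. Their sum of 205 to 356 CPM in controls and 360 to 519 CPM after IL-33 had an r of 0.94 with Scgb3a1. Most of that sum was Ltf (mean 80.4 and 318 CPM) and Aqp5 (193 and 103 CPM). Since Ltf is also made by neutrophils, the sum is not a measure of gland cells alone. The part of these cell types in the levels of the 7 genes was not tested.

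The marker lists that follow had smaller median changes than the club and goblet cell lists. The neuroendocrine and tuft cell list came nearest, with a median of 0.90. Its sum was 39.1 to 49.1 CPM in controls and 74.2 to 96.3 CPM after IL-33. The basal cell sum also separated, at 118 to 131 CPM in controls and 76.4 to 90.1 CPM after IL-33. Of 20 ciliated cell genes 4 rose and 8 fell (median -0.13), with Mcidas up by 1.33, Rsph4a down at -1.19 and the most abundant, Tppp3, down at -0.94. Of 8 basal cell genes 3 rose and 2 fell (Aqp3 2.90, Lamb3 -1.31), of 16 alveolar type 2 genes 4 rose and 9 fell (Chil1 1.33, Lyz1 -2.60), and of 16 pan-epithelial genes 2 rose and 9 fell (Krt18 0.42, Esrp2 -0.81, Cdh1 -0.39). Of 5 neuroendocrine and tuft cell genes 3 rose and 1 fell (Calca 2.75, Dclk1 2.31, Cplx2 -0.84). Of 6 tracheal cartilage genes 1 rose and 1 fell (Comp 1.24, Cytl1 -0.32), and of 2 tested genes of thyroid, parathyroid, thymus and oesophagus 0 moved, with Tg at 2.38 ± 0.543 and 2.41 ± 0.264 CPM.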

How the data were processed

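PolyA-selected RNA of 10 mouse lung samples was made into stranded libraries, per the labels. Named in the submitters' processing notes are STAR 2.5.4b, HTSeq 0.9.1, FastQC 0.11.6, MultiQC 1.6 and GRCm38. For the annotation release and the strand setting, no source used here gives a value. The deposited files hold raw read counts per gene, not normalized by the authors. Entries naming no gene were left out: 10.4% to 13.7% of records in no gene, 0.862% to 0.945% ambiguous, and multiply aligned 15.0% to 16.2% in controls and 20.0% to 22.8% after IL-33. Of 53465 genes 53274 matched a symbol.

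Groups followed the treatment label. All 10 libraries entered 1 edgeR 4.0.16 (R 4.3.3) fit with TMM factors (0.969 to 1.03), filterByExpr, Benjamini-Hochberg adjustment at 0.05 and group as the only term (biological coefficient of variation 0.136). CPM use TMM-scaled library sizes. SEs of changes were taken from the spread of log2(CPM + 0.1) within both groups. Ratios used counts + 0.5, and likeness log2(CPM + 0.5) with group means removed. Exonic lengths and positions are from GENCODE (GRCm38), promoters from RefSeq (GRCm38.p6). The edgeR fit was also run on simulated data with a biological coefficient of variation of 0.136 for every gene. That check does not cover genes as variable as Scgb3a1, Bpifa1, Bpifb1 and Reg3g. Their control CPM had a coefficient of variation of 83.9% to 101%.

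The 7 genes, the 19 lists beside them and the motifs were chosen with earlier results of these data known. Of each list the text names the called gene of at least 1 CPM with the largest rise, the one with the largest fall and the most abundant. Of each of the 7 genes it names the 3 most like genes of at least 1 CPM. Other genes named, chromosomal neighbours, the cardiac muscle list, its use as a covariate and Bpifa1 as denominator were chosen after the data were seen. In the lists, 6 genes matched no identifier. Alternatives were DESeq2 1.42.0, limma-voom (limma 3.58.1), other scalings and filters, other pseudocounts, length and GC offsets, the replicate block and leaving out each library. Ratios, exact tests and likeness were computed in Python 3.11.15 with scipy 1.17.1, pandas 2.3.3 and numpy 2.4.6.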

Additional observations from a re-analysis of the deposited data

Results flagged for a closer look

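In the IL-33 group, Scgb1a1 in library 5 stood apart from the other 4, at 10673 CPM against 12099 to 12607 CPM. The gap to the nearest library was 0.737 of the range of the group, above the limit of 0.71 for 5 samples. It was the single case among 28 groups checked, and chance gives about 5% of groups. The fall of Scgb1a1 was -0.53 to -0.47 in the fits that left out 1 library.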

How the results depend on the processing

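Of the results that answer a comparison, 10 values under other settings lost the call with the same sign, and 4 changed sign. None of these 4 was called under both settings. Lypd2 with offsets and the share without Scgb1a1 lost the call, and Bpifa1 with the uncentred covariate gained one. The other 114 kept their side of the threshold. Among those 114 the uncalled ratio of Bpifa1 also changed sign, from -0.082 to 0.67, with the club cell list in place of Scgb1a1. With length and GC offsets Scgb3a1 went to 0.22 and Lypd2 to -0.052, and with the replicate block added to 0.55 and -0.061. DESeq2 gave 1.30 for Scgb3a1 (adjusted p = 0.0558). The uncentred muscle covariate gave 3.43 for Bpifa1 and moved Reg3g, Bpifb1, Scgb3a1 and Lypd2 upward (7.37, 5.20, 3.64 and 1.92). The cause of these shifts was not tested. The share of reads differed by 0.0123 percentage points without Scgb1a1. The ratio of Lypd2 was 1.51 to Bpifa1 and did not pass. In gene lists, 37 counts moved by over 1.5 times.

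Replicate numbers do not pair the samples: deviations of same-numbered libraries had an r of -0.0692 to 0.231, and 1 of 5 controls was most like its own number. With the replicate number as a block, 11122 genes passed. In pairs by number, an exact sign-flip permutation test cannot go below 0.0625, so the share (-0.515, p = 0.0625) and the ratios to Scgb1a1 (Scgb3a1 2.19, Scgb3a2 -2.63, Bpifb1 3.09, Lypd2 1.43, Reg3g 3.87; adjusted p = 0.075) could not pass.

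With 1 library left out, 10516 to 11089 genes passed. Changes ran from -0.53 to -0.47 for Scgb1a1, 1.04 to 1.84 for Scgb3a1, -3.21 to -2.81 for Scgb3a2, -1.18 to -0.35 for Bpifa1, 1.91 to 2.91 for Bpifb1, 0.80 to 1.12 for Lypd2 and 2.84 to 3.66 for Reg3g. Ratios to Scgb1a1 ran from 1.74 to 2.62 for Scgb3a1, -2.80 to -2.28 for Scgb3a2, -0.79 to 0.78 for Bpifa1, 2.61 to 3.60 for Bpifb1, 1.31 to 1.62 for Lypd2 and 3.04 to 4.77 for Reg3g, and the share from -0.545 to -0.478. With 4 against 5 the ratios had adjusted p up to 0.0667 for Reg3g, lost in 5 of 10, and Scgb3a1, Bpifb1 and Lypd2 in 3 each.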
